A study of Mus musculus with 8 samples.

Results

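A set of 37 cell cycle genes was followed through the epithelial and surrounding tissue of the mouse incisor: 15 genes used mainly in S phase, when DNA is copied, and 22 used mainly in mitosis. The set is a list of gene names with no threshold on a measured value, put together with earlier results of these data known, and was read from a table of 23358 rows. All 37 names were found and all 37 passed the filter on low values described with the tests, with between 107 and 7995 reads behind each value.

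Dividing cells make the products of these genes in waves. Replication genes are switched on by E2F factors when retinoblastoma-type pocket proteins let go of them, and mitotic genes follow later under the DREAM and MuvB complexes with B-MYB and FOXM1, which bind a promoter element called the cell cycle genes homology region (CHR). Because resting cells carry little of these transcripts, their abundance is widely read as a measure of how much of a tissue is cycling. In the continuously growing incisor, cells divide in and next to the cervical loop and leave the cycle as they become enamel-forming ameloblasts.

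RNA was sequenced from tissues of 4-week-old mice on a C57BL/6 background. The *Med1* cKO mice carried floxed *Med1* alleles and a Cre recombinase driven by the *Krt14* promoter, which acts in basal epithelium, skin included, so cells that never use this promoter, such as mesenchyme, muscle and blood cells, keep *Med1*. The Ctrl mice were littermates without Cre. From each genotype the cervical loop part with the stem cells (CLH) and the part with their progenies (CLT) were dissected, giving the groups Ctrl CLH, cKO CLH, Ctrl CLT and cKO CLT with 2 libraries each. The study's methods speak of biological duplicates, and the paper describes cervical loop tissues pooled per group in separate litters, with sexes not distinguished. The labels do not tie a library to an animal. The p-values therefore rest on the spread between these libraries and not between single animals. The libraries are of whole tissue, in which fewer cycling cells and less RNA per cycling cell cannot be told apart.

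The libraries held 22330512 to 28651106 reads on genes. Values are RPKM (read number divided by gene length in kilobases and by the library's size), and differences are given on the log2(RPKM + 1) scale, which understates the change of low genes. *Med1* itself had an RPKM of 7.71 and 9.12 for Ctrl CLH, 7.10 and 7.03 for cKO CLH, 4.83 and 8.71 for Ctrl CLT, and 9.15 and 8.96 for cKO CLT, so the libraries labelled cKO did not lie below Ctrl in CLT, and gene totals cannot show the loss of a few exons. The 2 Ctrl CLT libraries stood apart from each other: 34.6% of the genes tested differed by more than 1.5-fold between them, against 0.763% to 1.12% in the other groups.

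The CLT libraries also differed in tissue markers. The summed RPKM of 7 ameloblast markers was 12504 to 14318 in the 4 CLH libraries, 84584 and 37392 for Ctrl CLT 1 and 2, and 19.7 and 15.8 for cKO CLT. In cKO CLT 4 of the 7 markers still reached an RPKM of 1, and *Amtn* (6.88 and 8.72) lay above its 5.48 in cKO CLH 1. The sum in cKO CLT was nevertheless far below that of every other library. In the opposite direction, 7 markers of hair shaft and inner root sheath summed to 5.75 to 7.61 in CLH, 3347 for Ctrl CLT 1, 11.4 for Ctrl CLT 2, and 9952 and 10957 for cKO CLT. Skeletal muscle markers followed the hair markers, with 27.7 to 32.2 in CLH, 651 and 49.3 for Ctrl CLT, and 1785 and 1965 for cKO CLT. Odontoblast and bone markers summed to 2151 to 3131 in all CLH and Ctrl CLT libraries and to 378 and 473 for cKO CLT, of which *Col1a1*, a collagen gene of many connective tissues, made up 376 and 472. The odontoblast gene *Dspp* lay between 423 and 654 in the CLH and Ctrl CLT libraries and had 0.145 and 0.174 for cKO CLT, and *Ibsp* was at 0 in both. Basal epithelial markers summed to 610 to 706 in CLH, 1510 and 883 for Ctrl CLT, and 2078 and 2334 for cKO CLT. Of these markers *Itga6* went the other way, with 30.3 and 43.1 for Ctrl CLT and 18.3 and 17.5 for cKO CLT. The sum of mesenchyme markers was 1505 to 2058 over all 8 libraries, but its members differed. *Pdgfra* had 43.2 to 46.3 in CLH and 6.03 and 5.76 for cKO CLT, and *Vim* 459 to 528 and then 128 and 132, whereas *Col3a1* had 436 to 476 in CLH and 874 and 979 for cKO CLT. Leukocyte markers lay between 255 and 274 in CLH and between 127 and 195 in CLT. The part of these tissue differences in the results below was not tested.

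The 37 genes were expressed in every library. Summed over the set, RPKM was 763 ± 9.52 for Ctrl CLH, 740.3 ± 0.838 for cKO CLH, 417 ± 94.5 for Ctrl CLT and 689 ± 16.2 for cKO CLT (SD, n = 2 each). Relative to the mean of Ctrl CLH, the sum was 0.460 for Ctrl CLT 1, 0.635 for Ctrl CLT 2, and 0.918 and 0.888 for cKO CLT. Ctrl CLT was therefore the group with the low values, and the other 3 groups lay near each other. For 34 genes the lowest of all 8 libraries was Ctrl CLT 1, and for the other 3 it was Ctrl CLT 2. The highest library was in CLH for 30 of the 37 genes and in cKO CLT for 7.

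**Figure D1:**
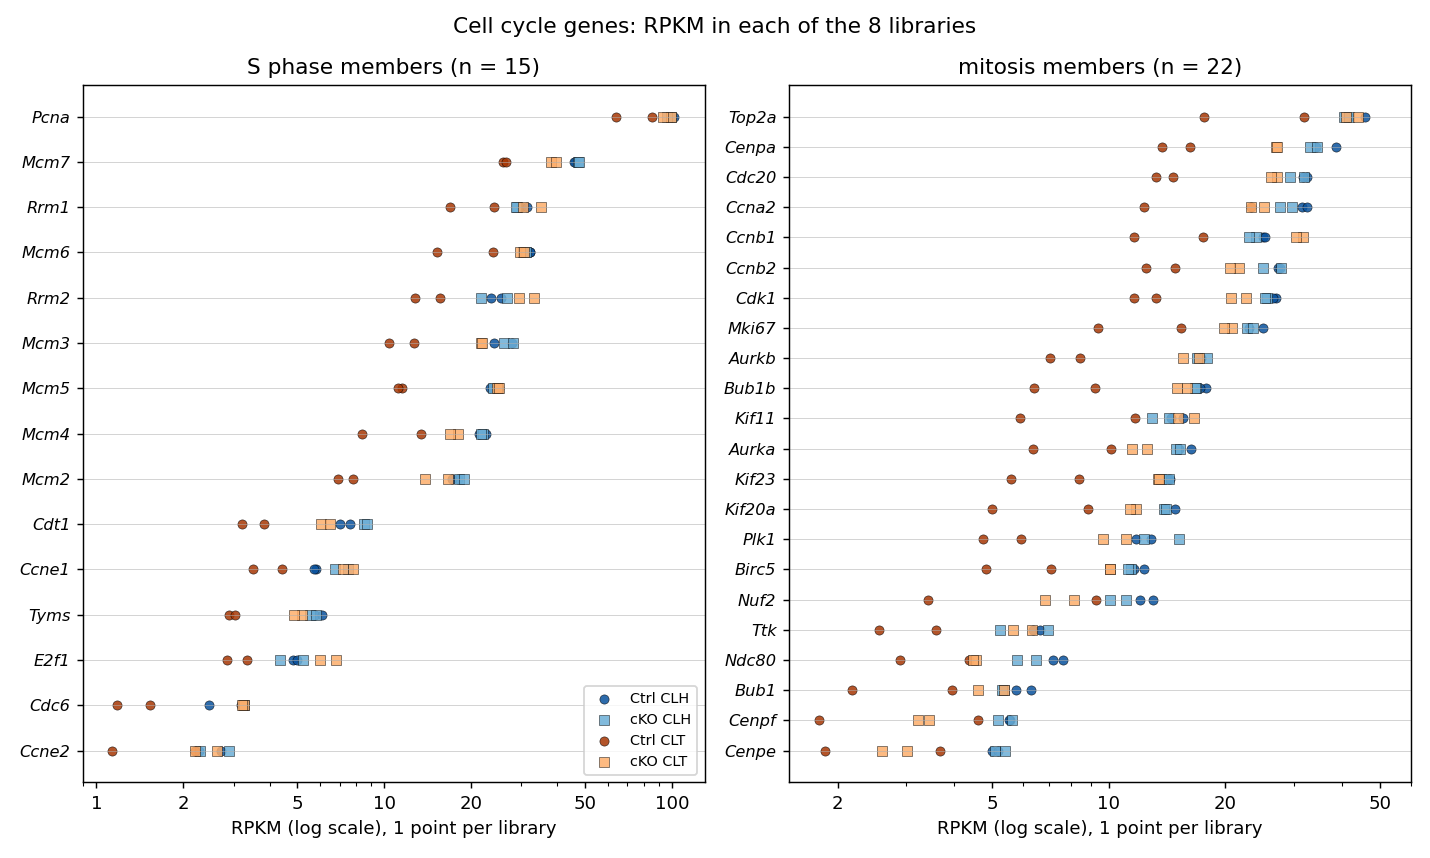
RPKM (log axis) of each of the 15 S phase and 22 mitosis genes in each of the 8 libraries, 1 point per library, coloured by group. The dark orange Ctrl CLT circles lie at the left of nearly every row, and for 34 genes both lie below both cKO CLT squares.

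**Figure D2:**
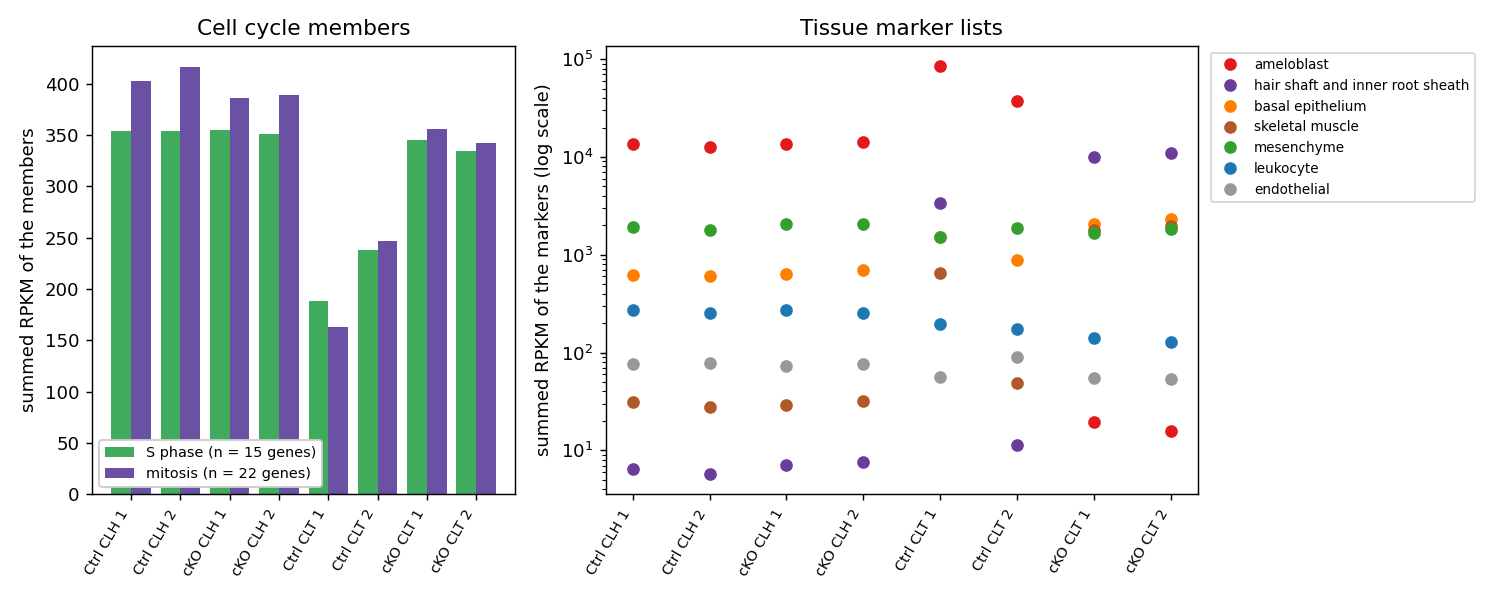
Left, summed RPKM of the S phase genes and of the mitosis genes in each library (bars start at 0). Right, summed RPKM (log axis) of 7 tissue marker lists in the same libraries. Ctrl CLT 1 has the lowest cell cycle sum and the highest ameloblast sum, and cKO CLT has the lowest ameloblast and the highest hair and muscle sums.

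Among the S phase genes, *Pcna*, the sliding clamp that holds DNA polymerase on its template (chromosome 2, 132249286 to 132253180, mm10), had the highest level, with an RPKM of 100.5 and 102 for Ctrl CLH, 99.6 and 96.1 for cKO CLH, 64.0 and 85.2 for Ctrl CLT, and 99.3 and 93.5 for cKO CLT. Both Ctrl CLT libraries were below the other 6, whose values lay within 10 units of each other. *Ccne2*, an E-type cyclin that starts S phase (chromosome 4, 11191354 to 11204779), had the lowest mean, from 1.14 for Ctrl CLT 1 to 2.90 for cKO CLH 1. The mitosis genes ran from *Top2a*, the topoisomerase that untangles replicated chromosomes (chromosome 11, 98992947 to 99024189), with 40.4 to 45.7 in CLH, 17.6 and 31.9 for Ctrl CLT, and 43.9 and 40.9 for cKO CLT, to *Cenpe*, a kinetochore motor (chromosome 3, 135212563 to 135273540), with 5.02 to 5.40 in CLH, 1.85 and 3.68 for Ctrl CLT, and 3.01 and 2.604 for cKO CLT. For *Top2a* cKO CLT lay within the CLH range, whereas for *Cenpe* cKO CLT lay between the Ctrl CLT libraries.

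The balance between the waves differed less than their size. The summed RPKM of the mitosis genes divided by that of the S phase genes was 1.14 and 1.18 for Ctrl CLH, 1.09 and 1.11 for cKO CLH, 0.867 and 1.03 for Ctrl CLT, and 1.03 and 1.02 for cKO CLT. All 4 CLH libraries had a ratio above all 4 CLT libraries. This separation leans on *Pcna*, which alone held 100.5 of the S phase sum of 353 in Ctrl CLH 1. In Ctrl CLT 2 it held 85.2 of 238. The ratio therefore does not describe the S phase genes as a group. In the Ctrl groups the mitosis sum was 409 ± 9.28 in CLH and 205 ± 59.0 in CLT, and the S phase sum was 354 ± 0.234 and 213 ± 35.5 (SD, n = 2 each).

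Many promoters of the set, though not all, carry a word by which the E2F or the CHR system is recognised. The promoters are shown because most of these genes shared the same order of groups. RefSeq promoter windows of GRCm38.p6 (mm10), running from 250 bases before to 50 bases after the annotated start, were matched by symbol for 32 of the 37 genes, in 33 windows, since *Mcm7* has 2. None was at hand for *Mcm4*, *Kif20a*, *Ccne2*, *Ccna2* and *Aurkb*. On either strand, an E2F word (TTTCCCGC, TTTCGCGC, TTTGCCGC or TTTGGCGC), a CHR word (TTTGAA or TTTAAA) and the CCAAT box (CCAAT) were searched for. Words of different kinds can share an end base, and each match was counted. The stretches below are the 150 bases before the start on the gene's own strand, 5′ to 3′, of 3 S phase genes and 3 mitosis genes among those whose region effect differed between genotypes, with matches in capitals.
*Mcm5* (chr8:75109359-75109508, plus strand): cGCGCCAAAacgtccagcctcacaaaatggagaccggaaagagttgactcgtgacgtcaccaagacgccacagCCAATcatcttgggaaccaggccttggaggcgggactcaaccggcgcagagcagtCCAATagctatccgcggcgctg
*Rrm2* (chr12:24708104-24708253, plus strand): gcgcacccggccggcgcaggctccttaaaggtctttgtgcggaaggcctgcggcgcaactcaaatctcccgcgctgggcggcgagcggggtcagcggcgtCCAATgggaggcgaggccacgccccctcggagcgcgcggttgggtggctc
*Mcm2* (chr6:88898781-88898930, minus strand): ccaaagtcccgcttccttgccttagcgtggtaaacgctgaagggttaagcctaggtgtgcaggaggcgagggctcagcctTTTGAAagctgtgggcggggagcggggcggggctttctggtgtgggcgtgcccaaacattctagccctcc
*Cdc20* (chr4:118437344-118437493, minus strand): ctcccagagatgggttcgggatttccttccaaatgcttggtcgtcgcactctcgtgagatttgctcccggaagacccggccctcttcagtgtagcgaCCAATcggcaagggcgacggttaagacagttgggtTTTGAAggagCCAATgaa
*Cenpa* (chr5:30666736-30666885, plus strand): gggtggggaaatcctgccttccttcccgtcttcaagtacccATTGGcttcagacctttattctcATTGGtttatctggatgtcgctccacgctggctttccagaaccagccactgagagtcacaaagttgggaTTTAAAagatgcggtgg
*Cdk1* (chr10:69352913-69353062, minus strand): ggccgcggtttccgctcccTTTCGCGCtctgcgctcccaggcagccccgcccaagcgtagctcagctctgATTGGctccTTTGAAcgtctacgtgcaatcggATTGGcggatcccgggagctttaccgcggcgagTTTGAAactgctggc

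In these stretches *Cdc20* has a CHR word at -18, counted in bases from the start, with CCAAT boxes at -53 and -8. *Cenpa* has a CHR word at -17 with CCAAT boxes at -109 and -86, and *Cdk1* has CHR words at -71 and -15, CCAAT boxes at -80 and -48, and an E2F word at -131. *Mcm5* has an E2F word at -149 and CCAAT boxes at -77 and -22, *Rrm2* a CCAAT box at -50, and *Mcm2* a CHR word at -70. Over the whole windows, a CHR word was found in 17 of 19 mitosis promoters (89.5%), in 4 of 14 S phase promoters (28.6%) and in 27.6% of all 32851 promoters. An E2F word was found in 6 of 14 S phase promoters (42.9%: *Mcm3*, *Mcm5*, *Mcm6*, *Mcm7*, *Cdc6* and *Cdt1*), in 1 of 19 mitosis promoters (5.26%, *Cdk1*) and in 2.26% of all promoters. The CCAAT box was found in 16 of 19 mitosis promoters (84.2%), 9 of 14 S phase promoters (64.3%) and 37.4% of all. A CHR word together with a CCAAT box was present in 15 mitosis promoters (78.9%), 3 S phase promoters (21.4%) and 10.7% of all. *Nuf2* was the mitosis gene with none of the words, and *Bub1* had a CCAAT box without a CHR word. These are matches of letters, not binding sites, and with only the 150 bases before the start a CHR word was found in 8 mitosis promoters (42.1%) against 14.7% of all.

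**Figure D3:**
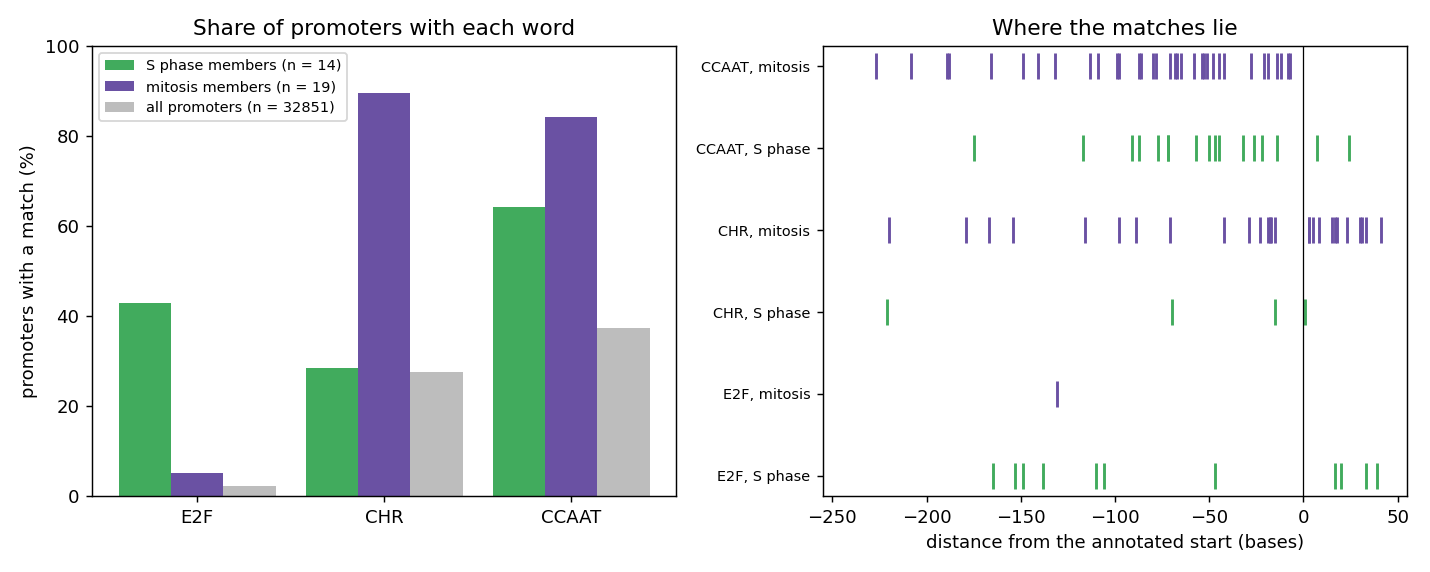
Left, percent of promoter windows with an E2F word, a CHR word or a CCAAT box among S phase genes, mitosis genes and all promoters. Right, distance of each match from the annotated start in bases, 1 tick per match; CHR words stand out in mitosis promoters (89.5% against 27.6% of all) with a median distance of -17 bases.

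The comparison of CLH with CLT in Ctrl mice asks how the cell cycle genes differ between the stem cell region and its progenies in normal teeth. All 37 genes had a higher RPKM in both Ctrl CLH libraries than in both Ctrl CLT libraries, where 36.8% of all genes tested were separated in this direction and 15.2% in the other. The median log2 fold change of the set was 0.88, against 0.13 for all 14148 genes tested, and ranged from 0.41 for *Ccne2* to 1.23 for *Cenpa*. With limma on log2(RPKM + 1), over genes reaching an RPKM of 1 in 2 or more libraries, 0 of the 37 passed an adjusted p of 0.05 (Benjamini-Hochberg, adjusted p between 0.279 and 0.540), beside 0% of all genes called higher and 0.00707% called lower. Before adjustment, 27 of the 37 had a p under 0.05, beside 9% of all genes in this direction, and voom on the recovered reads also called 0. When all 8 libraries shared an estimate of the spread, 19 of the 37 were called higher, against 3.47% of all genes.

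The S phase genes with the largest differences were *Mcm2*, *Mcm3*, *Mcm5* and *Mcm4*, while *Mcm6* (0.72) and *Mcm7* (0.79) lay near the S phase median of 0.75. *Mcm2*, a subunit of the MCM helicase that opens DNA at origins (chromosome 6, 88883474 to 88898780), had an RPKM of 18.1 and 17.2 for Ctrl CLH and 6.90 and 7.79 for Ctrl CLT (2.40-fold in the means, log2 fold change 1.16, SE 0.14, limma adjusted p = 0.279). *Mcm3*, another subunit (chromosome 1, 20803014 to 20820213), had 27.8 and 24.1 against 10.4 and 12.7 (log2 fold change 1.10, SE 0.17). In both genes every Ctrl CLH value was more than 1.8-fold above every Ctrl CLT value, unlike in *Pcna* (log2 fold change 0.45, SE 0.18) and *Ccne2* (0.41, SE 0.28), the S phase genes with the smallest differences.

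In the mitosis group, *Cenpa*, the histone H3 variant that marks centromeres (chromosome 5, 30666902 to 30674826), had 34.3 and 38.6 for Ctrl CLH and 13.8 and 16.2 for Ctrl CLT (2.43-fold, log2 fold change 1.23, SE 0.15, limma adjusted p = 0.279). *Cdc20*, which switches on the anaphase-promoting complex (chromosome 4, 118432901 to 118437343), had 32.5 and 31.7 against 13.2 and 14.6 (2.31-fold, log2 fold change 1.15, SE 0.13). *Cdk1*, the kinase that drives entry into mitosis (chromosome 10, 69336635 to 69352912), had 27.0 and 26.6 against 11.7 and 13.3 (2.15-fold, log2 fold change 1.05, SE 0.14). These 3 genes had tight values in both groups, whereas the proliferation marker *Mki67*, whose product coats mitotic chromosomes (chromosome 7, 135689788 to 135716379), had 23.1 and 25.0 against 9.37 and 15.4, a log2 fold change of 0.94 with an SE of 0.27. *Cenpf*, a large kinetochore protein gene (chromosome 1, 189640614 to 189688086), had 5.58 and 5.53 against 1.79 and 4.595, so that its Ctrl CLT 2 value lay much closer to CLH than to Ctrl CLT 1. The median was 0.93 for the 22 mitosis genes and 0.75 for the 15 S phase genes.

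Of the 37 genes, 34 were lower in Ctrl CLT 1 than in Ctrl CLT 2, with a median difference of 0.46 on the log2 scale, and Ctrl CLT 1 was also the library with the higher ameloblast and hair sums. Without Ctrl CLT 1, the median log2 fold change of the set was 0.65 and 9 genes passed the limma test, beside 1.4% of all genes called higher. Without Ctrl CLT 2, it was 1.14 and 36 passed, with *Cdc6* as the exception, beside 34.9% of all genes. In either case the remaining CLT library was assumed to vary like the CLH group.

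In cKO mice the same comparison gave a much smaller and mixed picture. Of the 37 genes, 29 had a higher and 8 a lower mean log value in CLH, with a median log2 fold change of 0.16, close to the 0.18 of all genes tested. With limma, 16 genes were called higher in CLH, beside 45.1% of all genes, and 3 were called lower, beside 28.9% of all genes. Both CLH libraries lay above both CLT libraries for 22 genes and below for 5, against 52.3% and 34.5% of all genes. The direction rested on the scaling: with median-of-ratios scaling, which moved the median of all genes from 0.18 to -0.01, the median of the set was -0.03, and 2 genes were called higher and 8 lower, beside 34.8% and 37% of all genes. Relative to the median of all genes, 18 members lay above and 19 below as deposited, and 16 above and 21 below after that scaling.

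The largest differences among the genes called higher in cKO CLH were those of *Cenpe*, *Cenpf* and *Nuf2*. *Cenpe* had 5.40 and 5.08 for cKO CLH and 3.01 and 2.604 for cKO CLT (1.87-fold, log2 fold change 0.71, SE 0.11, limma adjusted p = 0.000357). *Cenpf* had 5.62 and 5.19 against 3.44 and 3.22 (log2 fold change 0.56, SE 0.10, limma adjusted p = 0.0011), and the kinetochore gene *Nuf2* had a log2 fold change of 0.45 (SE 0.11). For *Cenpe*, the cKO difference was close to that in Ctrl (0.74, SE 0.30).

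The 3 genes called lower in cKO CLH were *Ccnb1*, *Rrm2* and *E2f1*. *Ccnb1*, the cyclin partner of CDK1 (chromosome 13, 100778739 to 100786486), had 24.0 and 23.0 for cKO CLH and 31.7 and 30.5 for cKO CLT (log2 fold change -0.39, SE 0.08, limma adjusted p = 0.00293), although in Ctrl it had 25.0 and 25.2 in CLH and 11.6 and 17.5 in CLT. *Rrm2*, the ribonucleotide reductase subunit that limits the supply of DNA building blocks (chromosome 12, 24708254 to 24714146), had 26.8 and 21.7 against 33.1 and 29.4 (log2 fold change -0.36, SE 0.12, limma adjusted p = 0.0230). *E2f1*, which encodes an activating E2F factor (chromosome 2, 154559639 to 154569852), had 4.34 and 5.23 against 6.00 and 6.78 (log2 fold change -0.36, SE 0.12). Among the 8 libraries, all 3 genes had their highest values in cKO CLT and their lowest in Ctrl CLT.

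**Figure D4:**
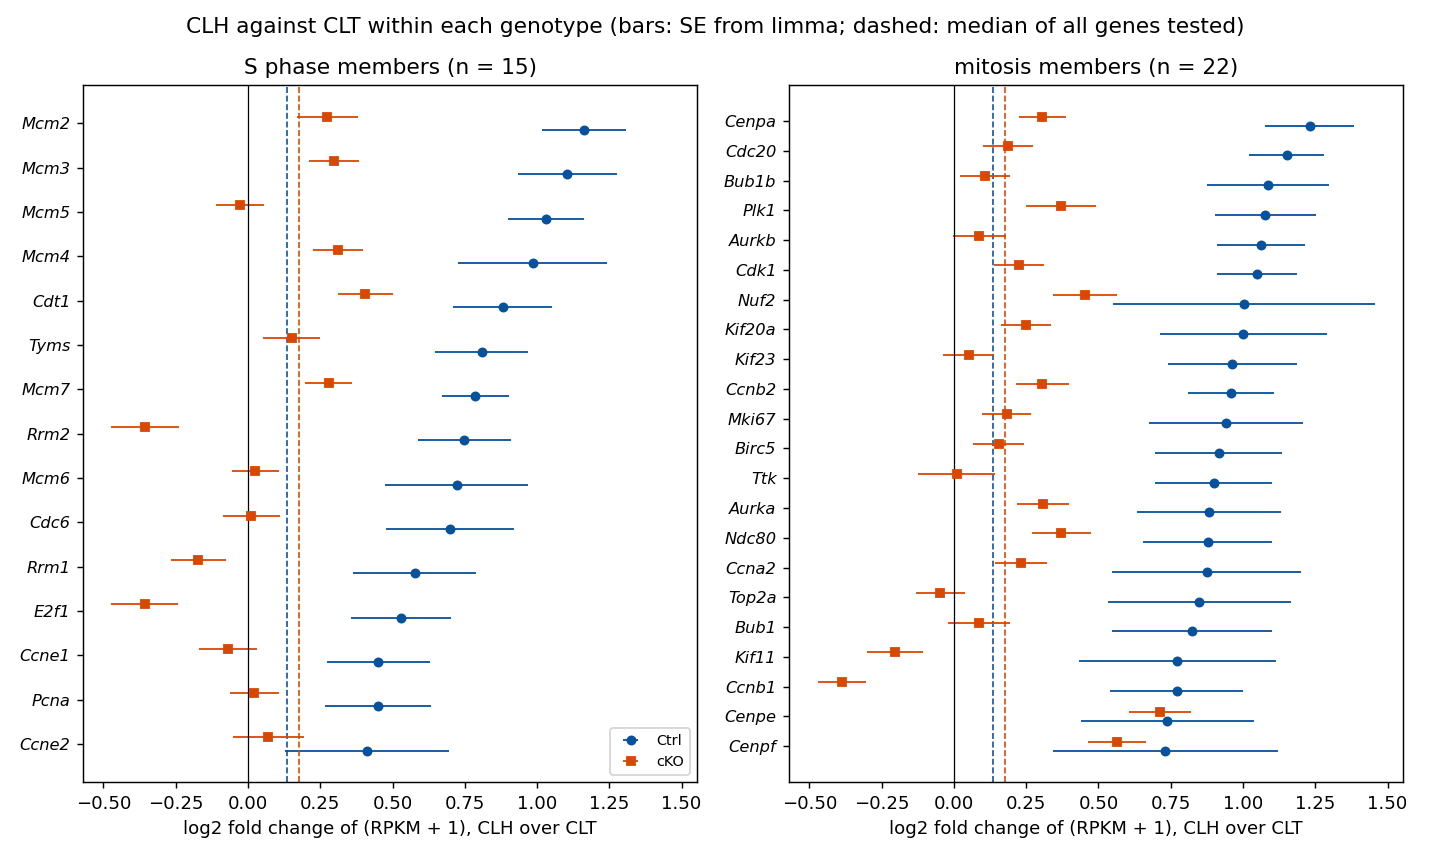
Log2 fold change of (RPKM + 1) of CLH over CLT for each gene in Ctrl and in cKO, with SE from limma as bars and the median of all genes tested as dashed lines. All 37 Ctrl points lie to the right of both dashed lines, from 0.41 to 1.23, while the cKO points lie from -0.39 to 0.71.

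Whether the CLH to CLT difference itself differed between genotypes was asked with an interaction term fitted to the 8 libraries. All 37 genes had a negative value, meaning a smaller excess of CLH over CLT in cKO than in Ctrl, with a median of -0.75 against 0.01 for all genes. The limma test called 15 of the 37 lower, beside 8.05% of all genes called lower and 9.58% called higher. This fit shares an estimate of the spread over all groups, although the Ctrl CLT libraries lay far further apart than the others. It thus treats the spread of Ctrl CLT as better known than its 2 libraries allow. Fitted alone, CLH against CLT in Ctrl called 0 of the 37, beside 0% of all genes higher in CLH and 0.00707% lower. Fitted alone, cKO against Ctrl in CLT called 0 of the 37, beside 0.0777% of all genes higher in cKO and 1.68% lower. The genes called by the interaction are named next. The 15 called were 8 mitosis genes (*Aurkb*, *Bub1b*, *Ccnb1*, *Ccnb2*, *Cdc20*, *Cdk1*, *Cenpa* and *Kif23*) and 7 S phase genes (*E2f1*, *Mcm2*, *Mcm3*, *Mcm5*, *Mcm7*, *Rrm2* and *Tyms*).

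*Mcm5*, a further helicase subunit (chromosome 8, 75109528 to 75128439), had the smallest p. Its RPKM was 25.1 and 23.4 for Ctrl CLH, 24.0 and 25.0 for cKO CLH, 11.54 and 11.2 for Ctrl CLT, and 24.8 and 25.2 for cKO CLT. The 6 values outside Ctrl CLT lay within 2 units of each other and more than 2-fold above both Ctrl CLT values, and the interaction was -1.06 (SE 0.12, limma adjusted p = 0.00698). *Aurkb*, the kinase of the chromosomal passenger complex (chromosome 11, 69045643 to 69051662), behaved alike, with 17.3 and 17.2, 17.9 and 16.9, 7.07 and 8.44, and 15.5 and 17.1 in the same order of groups (interaction -0.97, SE 0.16, limma adjusted p = 0.0172). *Mcm7* (chromosome 5, 138164589 to 138171862) had tight groups but a partial difference, with 46.2 and 45.8, 47.1 and 47.4, 25.96 and 26.6, and 38.1 and 39.5, so that cKO CLT lay between Ctrl CLT and CLH (interaction -0.51, SE 0.11, limma adjusted p = 0.0302). *Cenpe* (-0.02, SE 0.33) and *Cenpf* (-0.17, SE 0.43) had the smallest interactions, and their SE leaves room for values as large as those called.

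The count of called genes depended on which libraries were in the fit. Leaving out either Ctrl CLT library gave a higher count, but the remaining one was then assumed to vary like the other, tighter groups. Such a count is no stronger evidence. Leaving out any of the other 6 libraries removed the calls of the set. It also removed most calls over all genes, so this loss says nothing about the set. Over all settings with a library left out, the median of the set ran from -0.99 to -0.52. With the replicate number as a block, 7 of the 37 were called, beside 3.63% of all genes.

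In CLT, all 37 genes had a higher mean log value in cKO than in Ctrl. The median difference of the set was 0.71 on the log2 scale, against -0.01 for all genes tested. Both cKO libraries lay above both Ctrl libraries for 34 genes, where 37.2% of all genes were separated in this direction and 35.1% in the other, and *Cenpe*, *Cenpf* and *Nuf2* were the exceptions. With limma, 0 of the 37 were called (adjusted p between 0.0580 and 0.901), beside 0.0777% of all genes called higher and 1.68% called lower, and 22 reached an unadjusted p under 0.05, beside 19.8% of all genes in this direction. Voom called 5 higher, beside 1.82% of all genes, namely *Cdc20*, *Mcm2*, *Mcm5*, *Aurkb* and *Rrm2*. With all 8 libraries in a shared fit 28 were called higher, against 23.7% of all genes.

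On the log2(RPKM + 1) scale *Rrm2* had the highest fold change, with 12.8 and 15.6 for Ctrl CLT and 33.1 and 29.4 for cKO CLT (2.20-fold in the means, log2 fold change 1.09, SE 0.17, limma adjusted p = 0.0637). *Mcm5* followed, at 2.20-fold (log2 fold change 1.07, SE 0.14, limma adjusted p = 0.0580), and *Ccnb1* was 2.13-fold higher (log2 fold change 1.07, SE 0.24, limma adjusted p = 0.0796). In each of the 3 the lower cKO value was at least 1.7-fold the higher Ctrl value. *Pcna* (log2 fold change 0.38, SE 0.20) and *Ccne2* (0.38, SE 0.28) had the smallest differences among S phase genes, and *Cenpe* (0.06, SE 0.31) and *Cenpf* (0.13, SE 0.39) among mitosis genes. By the ratio of means alone *Cdc6*, a low gene, stood above *Rrm2*, *Mcm5* and *Ccnb1* at 2.38-fold. Without Ctrl CLT 1, 28 genes were called higher and *Cenpf* lower, beside 31.4% and 38.1% of all genes, with a median of 0.53 for the set. Without Ctrl CLT 2 all 37 were called higher, beside 29.1% of all genes, with a median of 0.93. In either case the remaining Ctrl library was assumed to vary like the cKO CLT group. The reads on ameloblast markers were 13.3% of all reads on genes in Ctrl CLT 1, 5.72% in Ctrl CLT 2, and only 0.00295% and 0.00222% for cKO CLT. The part of these shares in the CLT differences was not tested. With median-of-ratios scaling the median of the set was 0.76, against 0.03 for all genes, and all 37 had a higher mean log value in cKO.

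In CLH, no gene of the set passed the test between cKO and Ctrl. The set had a median log2 fold change of -0.05 against -0.01 for all genes, with 11 genes higher and 26 lower, from -0.24 for the kinetochore gene *Ndc80* to 0.26 for the cyclin *Ccne1*. With limma 0 of the 37 were called, as were 0% of all genes in each direction, 1 of the 37 (*Ccne1*, higher) reached an unadjusted p under 0.05, beside 4.83% of all genes in this direction, and voom called 0. The cKO libraries lay above both Ctrl libraries for 5 genes and below for 13, against 19.9% and 18.8% of all genes. The 13 comprised 10 mitosis genes and 3 S phase genes. *Mki67* had 23.1 and 25.0 for Ctrl CLH and 22.7 and 23.6 for cKO CLH (log2 fold change -0.05, SE 0.07), and *Cdk1* had 27.0 and 26.6 against 25.6 and 25.4 (-0.07, SE 0.05). The *Cdk1* groups did not overlap, and the ratio of their means was 0.95.

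**Figure D5:**
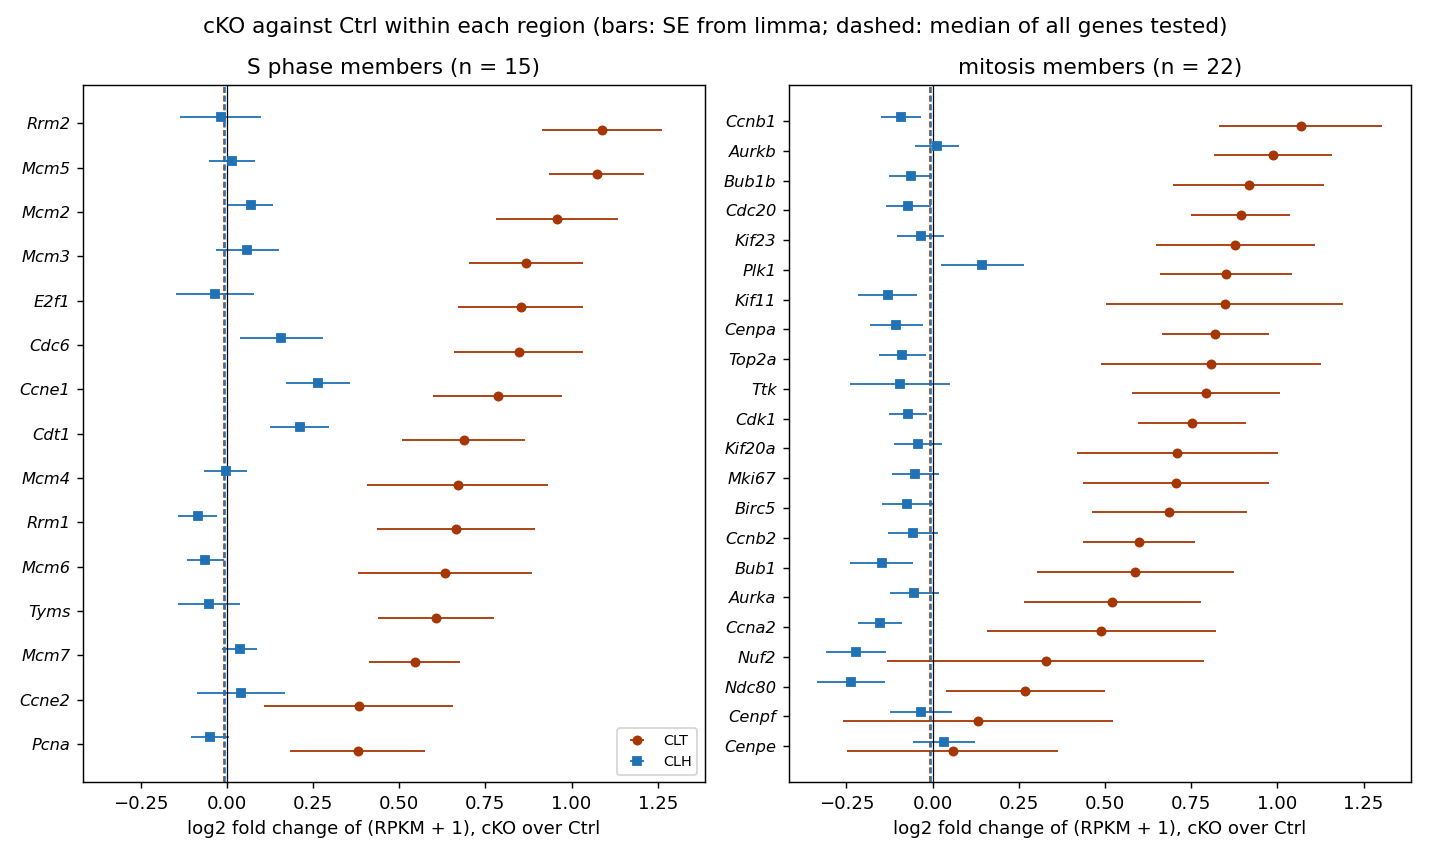
Log2 fold change of (RPKM + 1) of cKO over Ctrl for each gene in CLT and in CLH, with SE from limma as bars and the medians of all genes tested as dashed lines close to 0. The CLT points run from 0.06 to 1.09 and the CLH points from -0.24 to 0.26.

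Further lists of the same pathway, chosen with earlier results of these data known, had the same direction in Ctrl for the replication and mitosis machinery. In Ctrl, 72 of 72 other mitosis genes and 54 of 54 other replication genes had a higher mean log value in CLH. So did 9139 of all 14148 genes tested. The medians of the lists were 0.77 and 0.63, against 0.13 for all genes, and limma called 0 of them. In the lists 38 and 34 genes reached an unadjusted p under 0.05, beside 9% of all genes in this direction, and voom called 0 of all genes. In cKO, limma called 33 of the 72 higher and 3 lower, and 21 of the 54 higher and 5 lower, beside 45.1% of all genes called higher and 28.9% lower, so the shares called higher were near or below the background. The interaction was called lower for 10 of the 72 and 14 of the 54, and called higher for 0, beside 8.05% and 9.58% of all genes. *Tk1*, the salvage kinase for thymidine, had 25.8 and 24.4 for Ctrl CLH, 27.3 and 28.8 for cKO CLH, 17.6 and 12.8 for Ctrl CLT, and 36.4 and 38.7 for cKO CLT. *Nek2*, a centrosome kinase, had 7.76 and 6.75, 6.69 and 6.67, 4.49 and 4.18, and 10.7 and 11.3 in the same order. Both had their highest values in cKO CLT, as *Ccnb1* and *Rrm2* did. The replication origin gene *Orc3* went the other way, with 11.2 and 10.4 for cKO CLH and 4.10 and 3.48 for cKO CLT (log2 fold change 1.30, SE 0.11, limma adjusted p = 9.12e-06), below both Ctrl CLT values of 6.58 and 11.7. Among the mitosis genes, *Depdc1a* (2.34 and 1.82) and *Ska2* (9.84 and 8.40) lay in cKO CLT between the Ctrl CLT libraries and below all CLH libraries.

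The G1 regulators split. Of 19 G1 cyclins, kinases and cell cycle transcription factors, 18 had a higher mean log value in Ctrl CLH than in Ctrl CLT (median 0.61, 0 called by limma). At an unadjusted p under 0.05, 9 were higher, beside 9% of all genes in this direction. *Ccnd1*, the D-type cyclin that links growth signals to the cycle, had 68.2 and 75.3 for Ctrl CLH, 69.2 and 69.9 for cKO CLH, 17.9 and 50.05 for Ctrl CLT, and 32.5 and 34.1 for cKO CLT, so that CLT was low in both genotypes (cKO log2 fold change 1.04, SE 0.08, limma adjusted p = 6.44e-06). *Ccnd3* followed this order, with 29.8 and 33.4 for cKO CLH and 20.2 and 21.1 for cKO CLT. *Ccnd2* did not: it had 49.5 and 53.0 for Ctrl CLH, 46.6 and 47.9 for cKO CLH, 29.6 and 34.9 for Ctrl CLT, and 66.0 and 64.2 for cKO CLT, with an interaction of -1.11 (SE 0.15, limma adjusted p = 0.00929).

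Among the transcription factors, *E2f2*, an activating E2F, had 3.34 to 4.13 in CLH, 7.03 and 1.65 for Ctrl CLT, and 18.7 for both cKO CLT libraries (cKO log2 fold change of CLH over CLT -1.94, SE 0.09, limma adjusted p = 2.46e-07). Ctrl CLT 1, the Ctrl library with hair markers, held more *E2f2* than all CLH libraries. *E2f8*, a repressing E2F, had 2.59 to 2.85 in CLH, 2.35 and 1.84 for Ctrl CLT, and 6.87 and 7.12 for cKO CLT, and *Mybl2*, which encodes B-MYB, had 6.45 to 6.90, 4.94 and 2.82, and 10.7 and 12.4. These 3 factors were higher in cKO CLT than in every other library by at least 1.5-fold. *Mycn* had 10.5 and 10.96 for cKO CLT and 19.2 to 20.2 for cKO CLH (log2 fold change 0.82, SE 0.09).

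The inhibitors had no common direction. Of 21 inhibitors and pocket proteins 20 were tested, and 13 were higher and 7 lower in Ctrl CLH than in Ctrl CLT. Their median was 0.16, against 0.13 for all genes, and limma called 0. At an unadjusted p under 0.05, 2 were higher and 5 lower, beside 9% of all genes higher and 587 of 14148 lower. *Cdkn2b*, which blocks CDK4 and CDK6, had 1.46 and 1.26 for Ctrl CLH, 1.08 and 0.996 for cKO CLH, 9.79 and 18.1 for Ctrl CLT, and 7.17 and 6.71 for cKO CLT, so it was low in CLH and high in CLT in both genotypes (cKO log2 fold change -1.96, SE 0.10, limma adjusted p = 4.93e-07). *Cdkn1a*, the p53 target that inhibits CDKs, had 104.6 to 132 in CLH, 247 and 164 for Ctrl CLT, and 199 and 203 for cKO CLT (cKO log2 fold change -0.66, SE 0.09). *Cdkn1c*, a CDK inhibitor of the same family, had 47.6 to 60.8 in CLH, 15.3 and 45.3 for Ctrl CLT, and 5.97 and 5.95 for cKO CLT (cKO log2 fold change 3.11, SE 0.09, limma adjusted p = 1.13e-08). *Cdkn1b* ranged from 22.6 to 37.03 and its groups overlapped in all 4 comparisons.

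Some inhibitors and pocket proteins had high values in Ctrl CLT alone or in cKO CLT alone. The retinoblastoma gene *Rb1* and *Ccng1*, a p53 target, were picked after their values had been seen. *Rb1* had 9.35 and 9.31 for Ctrl CLH, 12.4 and 9.14 for cKO CLH, 21.02 and 25.0 for Ctrl CLT, and 10.7 and 9.54 for cKO CLT (interaction 1.28, SE 0.23, limma adjusted p = 0.0211), and *Ccng1* had 12.9 to 15.5 in CLH, 32.7 and 31.4 for Ctrl CLT, and 18.5 and 16.3 for cKO CLT. Both thus mirrored the 37 genes, with Ctrl CLT apart from the other groups. The antiproliferative gene *Btg2* had 39.6 to 42.6 for cKO CLT against 10.5 to 20.9 in the other libraries, and *E2f4*, the E2F that pairs with pocket proteins, had 32.6 and 33.7 for cKO CLT against 15.2 to 20.8 elsewhere.

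The library kit does not mark strand, so reads of overlapping genes cannot be told apart. In the GENCODE M21 annotation of mm10, 29.3% of the exon bases of *Kif20a* are shared with *Cdc23* on the opposite strand, 17.4% of *Ccne2* with *Ints8*, 12.5% of *Ccna2* with *Exosc9* and 7.25% of *Mcm7* with *Ap4m1*. Annotated pseudogenes exist for *Ccnb1*, *Ccnb2*, *Pcna* and *Tyms*, whose values are uncertain to that extent.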

How the data were processed

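RNA-seq libraries of CLH and CLT tissue from *Med1* cKO and Ctrl mice (2 per group, 8 in all) were analysed, with groups taken from the sample labels. Per the labels and the methods, the authors aligned paired-end reads to mm10 with RNA STAR and counted them with featureCounts, and the submitters' processing notes name STAR 2.6.0b-1 and featureCounts 1.6.3. They deposited RPKM values for 23358 rows with a gene length; the annotation, strand setting and RPKM total are not given in the sources used here. RPKM times length gave whole multiples of 1 read (within 0.05 reads) for 100% of the nonzero values checked, with totals of 26591612 to 34420180 reads. Names on more than 1 row (26 names, 69 rows) were not used by name.

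The 14148 genes that reached an RPKM of 1 in 2 or more libraries were tested as log2(RPKM + 1) with limma 3.58.1 (lmFit, eBayes with trend; R 4.3.3), Benjamini-Hochberg adjustment and a threshold of 0.05, within the 4 libraries of each comparison and over all 8 for the interaction. With 2 libraries a group, exact permutation allows no p below 0.333. The members, gene lists and marker lists were chosen with earlier results of these data known. Genes given one by one were, per role, those with the largest and smallest differences in CLH against CLT in Ctrl and in cKO against Ctrl in CLT, those with the highest mean, 5 usual proliferation markers, and the 10 with the smallest p among those called; of the other lists, the 3 largest called changes in each direction, of which some are given, the D-type cyclins and the CIP/KIP inhibitors. Other genes were named after their values were seen. The scripts were tested on simulated data. Promoters came from RefSeq (GRCm38.p6) and exon overlaps from GENCODE M21. Alternatives were other pseudocounts, scalings and filters, a shared fit, a replicate block, other variance models, an added limit of 1 on the log2 fold change, the ratio of means, voom on recovered reads, and each library left out in turn. A crossed pairing was chosen after seeing the data.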

Additional observations from a re-analysis of the deposited data

Results flagged for a closer look

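The CLH to CLT difference differed between Ctrl and cKO by the interaction test over all 8 libraries, with limma and an adjusted p of 0.05, for 15 of the 37 genes, beside 8.05% of all genes called in that direction. That test shares an estimate of the spread over all groups, although the Ctrl CLT libraries lay far further apart than the others. Fitted alone, CLH against CLT in Ctrl called 0 of the 37, beside 0% of all genes higher in CLH and 0.00707% lower. Fitted alone, cKO against Ctrl in CLT called 0 of the 37, beside 0.0777% of all genes higher in cKO and 1.68% lower. The log2 values of the genes with the smallest p were -1.06 for *Mcm5*, -0.96 for *Cdc20*, -0.97 for *Aurkb*, -0.92 for *Cenpa*, -0.82 for *Cdk1*, -1.10 for *Rrm2*, -0.89 for *Mcm2*, -0.51 for *Mcm7*, -1.16 for *Ccnb1* and -0.81 for *Mcm3*. All are negative, and in each of these genes both Ctrl CLT libraries were below the other 6. The ameloblast, hair, muscle and odontoblast marker sums differ between the same CLT groups, and their part in these values was not tested.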

How the results depend on the processing

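In Ctrl, the number of members called in CLH against CLT (0) became 19 with all 8 libraries in a shared fit, beside 3.47% of all genes called higher. It rose when a Ctrl CLT library was left out, where the remaining one was assumed to vary like the CLH group. With a library left out the median log2 fold change lay between 0.65 and 1.14. In cKO, the number of members called in either direction was 19. It became 0 with an added limit of 1 on the log2 fold change, beside 2232 of 14148 genes called higher and 1842 lower. With median-of-ratios scaling it was 10, beside 34.8% and 37% of all genes called higher and lower. With no filter it was 12, beside 5580 and 4022 of 23358 genes. The shared fit gave 3, beside 4442 and 3218 of 14148 genes. The count also fell with a library left out. The median there was 0.18 with a pseudocount of 0.1 and as the ratio of means, -0.031 with median-of-ratios scaling, and 0.15 to 0.18 with a library left out. For cKO against Ctrl in CLH the median was -0.061 with quantile normalization, -0.070 with voom and -0.060 to -0.034 with a library left out. For cKO against Ctrl in CLT the number called was 28 in the shared fit, beside 23.7% of all genes called higher, and 5 with voom, beside 1.82%. It rose when a Ctrl CLT library was left out, where the remaining one was assumed to vary like the cKO CLT group. The interaction was called for 3 members with the added limit, beside 627 of 14148 genes called lower. With no filter it was called for 9, beside 890 of 23358 genes called lower. With a library left out it was called for 0 to 36 members. Such fits leave 1 library in a group, and calls over all genes also rose and fell widely. This range therefore says nothing about the set. The median of the interaction was -0.92 with voom and -0.99 to -0.52 with a library left out. The cause of these shifts was not tested.

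In cKO CLH against CLT, 13 of the 37 members turned direction with median-of-ratios scaling, 6 with quantile normalization and 4 with voom, none of which limma had called. Between cKO and Ctrl in CLH up to 5 turned in a setting. Among the genes given one by one, the values were, with median-of-ratios scaling, *Aurkb* (-0.12), *Ccne2* (-0.084), *Cdc20* (-0.021), *Mki67* (-0.024) and *Pcna* (-0.19), with quantile normalization *Ccne2* (-0.0199) and *Top2a* (0.0100), and with voom *Pcna* (-0.00701). With a library left out, values there ran from -0.052 to 0.19 for *Ccne2*, -0.055 to 0.0010 for *Mcm5*, -0.021 to 0.065 for *Pcna* and -0.0974 to 0.0045 for *Top2a*. In CLT, cKO against Ctrl ran -0.30 to 0.41 for *Cenpe*, -0.37 to 0.63 for *Cenpf* and -0.28 to 0.94 for *Nuf2*, and the interaction -0.38 to 0.33, -0.67 to 0.34 and -1.16 to 0.057.

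Replicate numbers are shared between groups but the labels do not say that they mark a litter or day, and with 2 numbers the correlations of same-numbered deviations (-0.19 to 0.31) do not settle a pairing. With a replicate block the interaction was called for 7 members in place of 15, and the call of cKO against Ctrl in CLT moved from 11 higher and 237 lower to 888 higher and 856 lower over all genes, with 0 members in both. With cKO CLT 1 paired to Ctrl CLT 2 and the reverse, 9 genes and 0 members were called. Each group holds only 2 libraries, and in the comparisons that include Ctrl CLT the spread between its libraries was far wider than in the other groups.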
